A study of Mus musculus with 15 samples.

Results

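The 9 genes described here encode the receptors, carriers and enzymes through which mouse cells sense, make and remove retinoic acid (RA). They are the RA receptors *Rara*, *Rarb* and *Rarg*, the RA-binding proteins *Crabp1* and *Crabp2*, the synthesis enzyme *Aldh1a2*, the retinaldehyde reductase *Dhrs3*, and the RA-degrading enzymes *Cyp26a1* and *Cyp26b1*. They were chosen by name and looked up through their Ensembl identifiers in the GENCODE M21 annotation, 9 of the 55536 genes in the count table. All 9 passed the filter on low counts that left 18090 genes for testing.

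RNA-seq was performed on 15 libraries of a mouse embryonic stem cell (ESC) line, 3 replicates in each of 5 groups. The line was a single clone of Stella-eGFP ESCs that carried rtTAM2 and Dox-inducible *Prdm1*, *Prdm14*, *Tfap2c* and *Nanog*, so every group held these 4 transgenes. ESCs were grown in 2i plus LIF, and EpiLCs, epiblast-like cells of the formative state, were taken after 48 h in Activin A, bFGF and KSR. Primordial germ cell-like cells (PGCLCs) were made from EpiLCs with 2 µg/ml Dox and without added cytokines, and the Stella-eGFP+ cells were sorted on days 2, 4 and 6 (D2PGCLC, D4PGCLC and D6PGCLC).

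RA is made from vitamin A in a pair of oxidation steps, from retinol to retinaldehyde and from retinaldehyde to RA. ALDH1A2 carries out the second step, DHRS3 returns retinaldehyde to retinol, and the CYP26 enzymes oxidise RA to inactive products. RA enters the nucleus with the help of CRABP2 and binds RAR proteins, which sit on DNA as heterodimers with RXR proteins at direct repeats of a short site. In the embryonic gonad RA is best known for its part in the entry of germ cells into meiosis, where *Stra8* is its classical target. RA itself was not measured in these samples.

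Total counts ran from 22555021 to 42725681 per library, and 3 counts corresponded to at most 0.132 CPM, the count scaled to library size. D6PGCLC replicate 1 stood apart, with 18061 genes that had a count against 21103 to 24343 in the other 14 libraries, and differences from D6PGCLCs are given without it where a call or a named value leans on it. The labels fitted their markers. Summed CPM of 5 naive genes was 1690 to 1710 in ESCs against 334 to 335 in EpiLCs, and 888 to 1300 in the PGCLCs. That of 5 formative genes was 2810 to 3050 in EpiLCs and at most 218 elsewhere. That of 8 PGC genes was 1200 to 1400 in the PGCLCs against 310 to 369 in ESCs and EpiLCs. *Prdm1*, *Prdm14* and *Tfap2c* of the PGC list were induced by Dox. *Dppa3* is *Stella*, whose reporter was sorted on, so these genes were induced or selected by design. Still, *Prdm1* and *Prdm14* had higher means in EpiLCs (71.6 and 96.4 CPM) than in D6PGCLCs (59.6 and 71.65 CPM). *Tfap2c*, *Dppa3* and the rest of the list, *Itgb3*, *Dnd1*, *Nanos3* and *Kit*, had higher means in every PGCLC group than in ESCs and EpiLCs.

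Of the 9 genes, *Rarb* and *Cyp26a1* are long known as direct RA targets with a response element close to their start, and the sequence of that region is shown because both genes differed between ESCs and every later group. RefSeq promoter windows on GRCm38.p6, 250 bases before to 50 after each annotated start, were available for 8 of the 9 genes, in 14 windows, and *Crabp2* was not matched. They were searched on both strands for direct repeats of the site AGGTCA or of its variants (the sites AGTTCA and also GGGTCA and lastly GGTTCA) in any pairing, with spacers of 1, 2 or 5 bases (DR1, DR2, DR5). A DR5 was found in the windows of *Rarb* and *Cyp26a1*, and none of the 3 repeats in those of the other 6 genes. Among all 32851 windows, 0.0974% held a DR5, 0.268% a DR2 and 0.222% a DR1. The match is a description of these letters only. The repeats are in capitals, in the direction of the gene.
*Rarb* chr14:16575493-16575549, minus strand: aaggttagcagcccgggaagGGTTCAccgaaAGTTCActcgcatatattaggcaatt
*Cyp26a1* chr19:37697756-37697807, plus strand: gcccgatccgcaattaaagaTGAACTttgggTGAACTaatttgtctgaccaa

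The *Rarb* repeat began 53 bases before the RefSeq start of its 1 window and read in the direction of the gene. That window lies inside the longer GENCODE gene, whose 5' end at chr14:16819156 was not in a window and was not searched. The *Cyp26a1* repeat began 32 bases before the start and lies on the opposite strand, on which it reads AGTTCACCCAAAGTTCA. The single windows of *Stra8* and *Dazl* held none of the 3 repeats.

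Levels between genes were compared as RPKM, the CPM of a gene divided by the kilobases of its merged exons. *Rarg* had the highest group means of the 9 genes, from 13.9 RPKM in ESCs to 26.9 in EpiLCs. *Rara* followed between 6.64 and 13.5 RPKM, *Crabp1* between 5.58 and 10.9, and *Crabp2* between 0.769 and 17.7. *Aldh1a2* lay between 1.02 and 1.99 RPKM. The remaining genes had group means under 1 RPKM everywhere, with *Dhrs3* at most 0.809, *Cyp26a1* at most 0.591, *Cyp26b1* at most 0.0929 and *Rarb* at most 0.0923. Statements on those 4 genes rest on at most 140 counts per library.

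**Figure D1:**
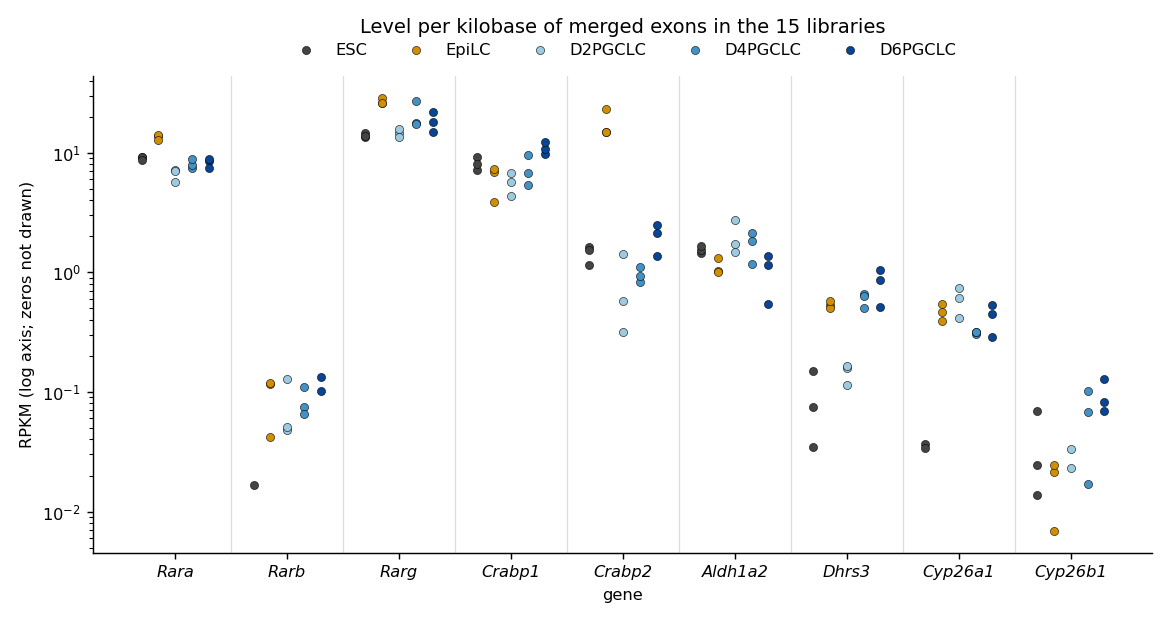
Level of each gene per kilobase of merged exons (RPKM, log axis), with 1 point per library and colours for the 5 groups; libraries at 0 are not drawn. *Rarg*, *Rara* and *Crabp1* lie highest in most groups, *Crabp2* reaches them in EpiLCs only, and *Rarb*, *Cyp26b1* and, in ESCs, *Cyp26a1* lie lowest.

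Of the 9 genes, 4 rose from ESCs to EpiLCs and 3 fell from EpiLCs to D2PGCLCs, steps at which more of all tested genes were called than between consecutive days of PGCLC culture. A gene was called where edgeR's quasi-likelihood test gave a Benjamini-Hochberg adjusted p under 0.05 and the absolute log2 fold change was above 1. In EpiLCs relative to ESCs, 4 of the 9 genes were called higher and 0 lower, while 26.2% of all tested genes were called either way and 14.4% higher. In D2PGCLCs relative to EpiLCs, 0 were called higher and 3 lower, against 25.4% of tested genes called either way and 14.4% lower. Between D2PGCLCs and D4PGCLCs 1 of the 9 genes was called, higher on day 4, where 2.94% of tested genes were called either way and 2.56% higher. Between D4PGCLCs and D6PGCLCs none of the 9 was called by edgeR, where 3.08% of tested genes were; 3 of the 9 had an unadjusted p under 0.05, and DESeq2 called 1. The median log2 fold change of the 9 genes was 0.95 in EpiLCs versus ESCs against -0.01 over all tested genes, and -0.28 in D2PGCLCs versus EpiLCs against 0.00.

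**Figure D2:**
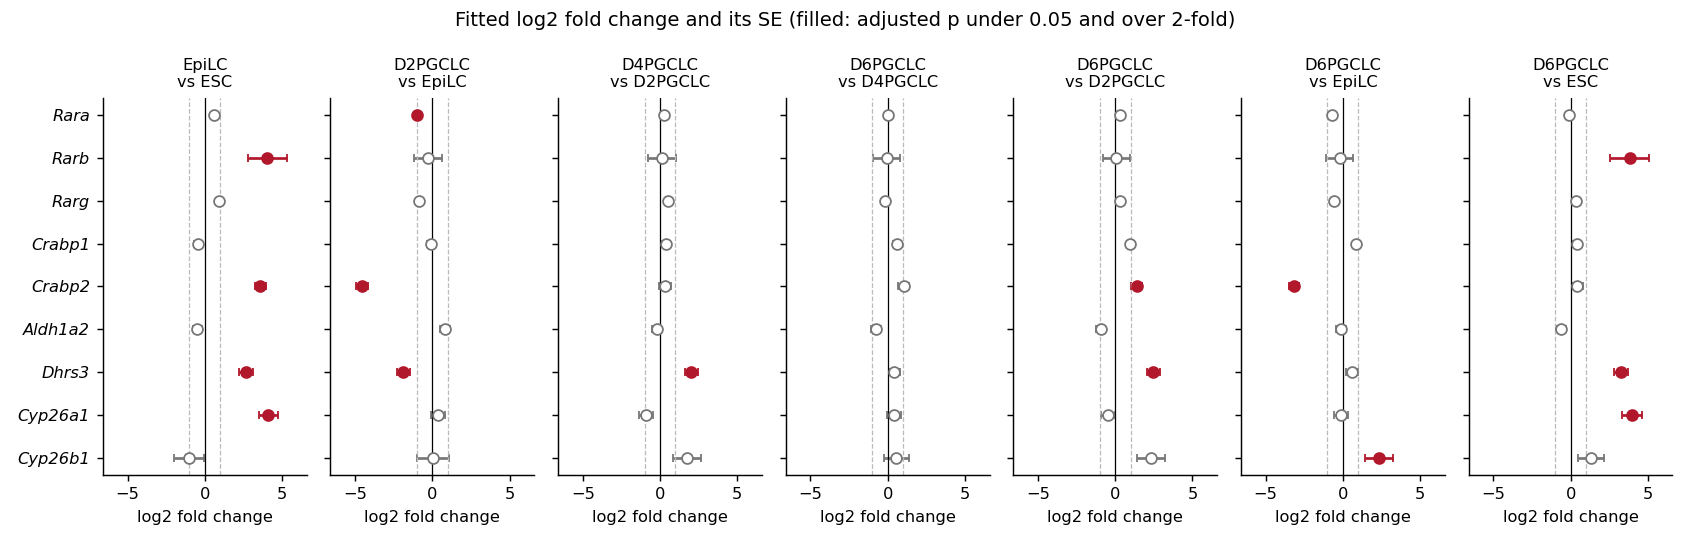
Fitted log2 fold change and its SE for each gene in the 7 comparisons, first group over second; filled red points have an adjusted p under 0.05 and a change above 2-fold (dashed lines at -1 and 1). Filled points lie to the right in EpiLC versus ESC and to the left in D2PGCLC versus EpiLC, and D6PGCLC versus D4PGCLC has none; comparisons that share a group share its libraries.

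The receptor *Rarg* (ENSMUSG00000001288, mm10 chr15:102234938-102257517, minus strand) is the main RAR of early embryonic cells. Its level was 62.5, 57.4 and 58.2 CPM in ESCs, 110, 122 and 112 in EpiLCs, then 61.8, 66.7 and 57.8 in D2PGCLCs, 74.8, 114 and 73.4 in D4PGCLCs, with 76.6, 92.7 and 62.9 in D6PGCLCs. EpiLCs lay above all ESC and D2PGCLC libraries, and 1 D4PGCLC library reached the EpiLC range. The log2 fold change was 0.95 (SE 0.15, edgeR's quasi-likelihood adjusted p = 2.3e-05) from ESCs to EpiLCs and -0.88 (SE 0.15, adjusted p = 4.79e-05) from EpiLCs to D2PGCLCs, both short of the 2-fold cutoff.

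*Rara* (ENSMUSG00000037992, chr11:98927818-98974942, plus strand) encodes a broadly used RAR. It was at 40.5, 39.8 and 37.5 CPM in ESCs, 59.8, 61.2 and 55.8 in EpiLCs, then 31.4, 30.8 and 24.8 in D2PGCLCs, 32.7, 34.2 and 38.7 in D4PGCLCs, with 36.9, 38.5 and 32.5 in D6PGCLCs. All EpiLC libraries lay above all others, and all D2PGCLC libraries below those of ESCs. *Rara* fell from EpiLCs to D2PGCLCs by 1.02 on the log2 scale (SE 0.10, edgeR adjusted p = 1.4e-07). This change sits at the cutoff, and it was 0.99 without EpiLC replicate 2 and 0.92 without D2PGCLC replicate 3, each as a fall. The EpiLC over ESC difference was 0.59 (SE 0.10, edgeR adjusted p = 9.73e-05) and stayed under the cutoff.

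*Rarb* (ENSMUSG00000017491, chr14:16430839-16819156, minus strand), the RAR gene that RA itself induces in many tissues, had 0, 2 and 0 counts in ESCs. It had 16, 19 and 6 counts in EpiLCs, then 22, 7 and 9 in D2PGCLCs, 19, 13 and 12 in D4PGCLCs, with 0, 32 and 19 in D6PGCLCs. Every EpiLC, D2PGCLC and D4PGCLC library lay above every ESC library, whereas D6PGCLC replicate 1, the library with few detected genes, had none. EpiLCs were at least 4.27-fold higher than ESCs, taking 3 counts per ESC library as the floor (edgeR adjusted p = 0.0116). The call was lost without ESC replicate 1 (adjusted p = 0.0529) or ESC replicate 3 (adjusted p = 0.0555), the libraries with 0 counts.

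D6PGCLCs were at least 3.64-fold higher in *Rarb* than ESCs (edgeR adjusted p = 0.0156), although the replicates overlapped. Without D6PGCLC replicate 1 the fitted log2 fold change was 4.43 (adjusted p = 0.000809), and the call was lost without D6PGCLC replicate 2 (adjusted p = 0.0628) or without either ESC library at 0. Of the *Rarb* exons, 34.1% overlap *Top2b*, a topoisomerase gene on the opposite strand with 1584 to 3442 counts per library, and the strand setting of the counting is not given in the sources used here. *Top2b* had 1843 to 2344 counts in the ESC libraries, where *Rarb* was at or near 0. Whether the overlap added reads to *Rarb* or took reads from it was not tested.

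Within the RAR family, *Rarg* made up 60.8% ± 0.992 (SD, n = 3) of the summed RPKM in ESCs, 66.4% ± 1.03 in EpiLCs and 68.5% ± 1.94 in D2PGCLCs. On days 4 and 6 it made up 71.0% ± 5.75 and 68.3% ± 2.35. The ESC libraries, at 59.6 to 61.4%, lay below all 12 other libraries, which ranged from 65.2 to 77.2%. *Rara* supplied nearly all of the rest, from 39.2% ± 0.95 in ESCs to 28.7% ± 5.71 in D4PGCLCs, and *Rarb* was at most 0.586% of the RAR sum in any library. The sum itself was 22.9 ± 0.884 RPKM in ESCs, 40.5 ± 1.95 in EpiLCs, 21.3 ± 1.79 in D2PGCLCs, and by days 4 and 6 it was 28.7 ± 5.22 and 26.5 ± 4.19.

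**Figure D3:**
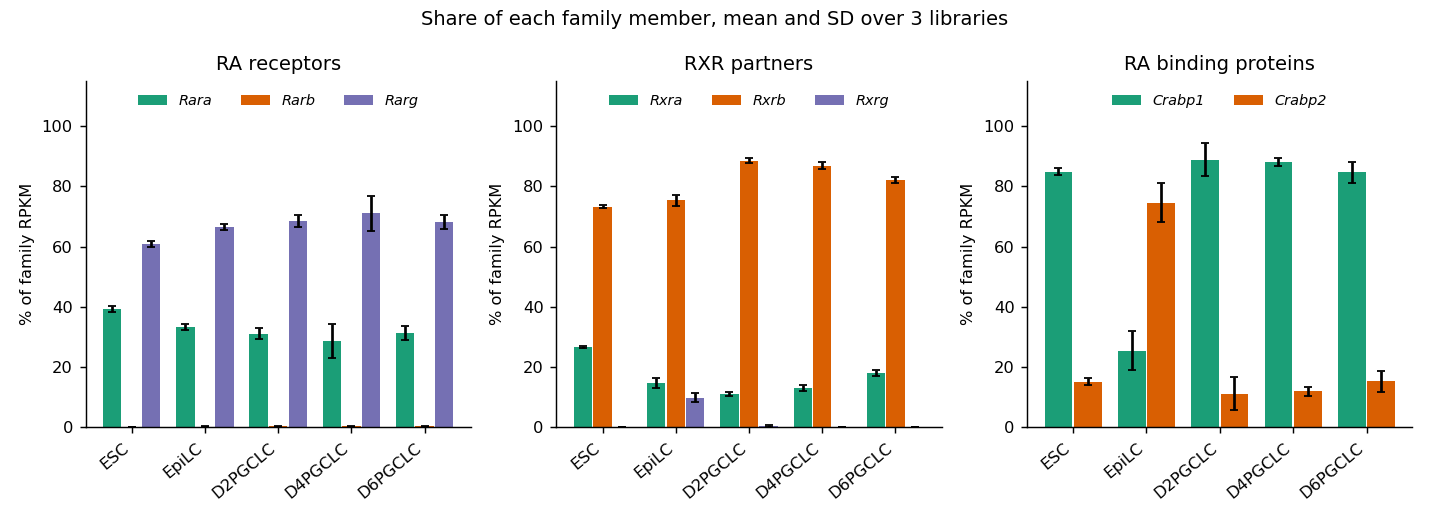
Share of each gene in the summed RPKM of its family (RARs, RXRs and CRABPs, percent), as the mean and SD of 3 libraries in each group. *Rarg* and *Rxrb* have the largest shares in all 5 groups, and *Crabp2* exceeds *Crabp1* in EpiLCs (74.6% against 25.4%) but in no other group.

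*Crabp2* (ENSMUSG00000004885, chr3:87948666-87953376, plus strand), which hands RA to the nuclear receptors, had the widest swing among the genes with at least 10 counts in every library. Its level was 2.15, 1.53 and 2.04 CPM in ESCs, 30.9, 19.7 and 19.6 in EpiLCs, then 0.766, 1.86 and 0.420 in D2PGCLCs, 1.09, 1.24 and 1.46 in D4PGCLCs, with 2.81, 1.81 and 3.26 in D6PGCLCs. The EpiLC libraries stood far above all 12 others. *Crabp2* rose from ESCs to EpiLCs with a log2 fold change of 3.60 (SE 0.35, edgeR adjusted p = 6.99e-08) and fell by 4.55 from EpiLCs to D2PGCLCs (SE 0.37, adjusted p = 7.66e-09).

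A second, smaller rise of *Crabp2* followed among the PGCLCs. D6PGCLCs exceeded D2PGCLCs by 1.39 on the log2 scale (SE 0.37, edgeR adjusted p = 0.00617), although D6PGCLC replicate 2 lay below D2PGCLC replicate 2. In a fit of those 6 libraries alone the adjusted p was 0.0506. The difference was 1.00 (adjusted p = 0.0366) without D2PGCLC replicate 3, 2.13 (adjusted p = 0.000153) without D2PGCLC replicate 2, and 1.34 (adjusted p = 0.016) without D6PGCLC replicate 1. D6PGCLCs exceeded D4PGCLCs by 1.05 with no overlap of replicates (SE 0.35), and edgeR's adjusted p of 0.0596 missed the threshold. This difference was 0.99 (adjusted p = 0.13) without D6PGCLC replicate 1. D6PGCLCs did not return to the EpiLC level, which was 3.16 higher on the log2 scale (SE 0.33, edgeR adjusted p = 1.86e-07), and the fold change without D6PGCLC replicate 1 was -3.21 (adjusted p = 1.4e-06).

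*Crabp1* (ENSMUSG00000032291, chr9:54764748-54773110, plus strand), the cytoplasmic RA-binding protein that can bring RA to its degrading enzymes, moved little. It was at 7.41, 5.74 and 6.40 CPM in ESCs, 5.47, 3.12 and 5.80 in EpiLCs, then 4.57, 5.38 and 3.48 in D2PGCLCs, 4.31, 5.45 and 7.65 in D4PGCLCs, with 7.88, 8.57 and 9.81 in D6PGCLCs. The 3 D6PGCLC libraries were the highest of all 15. The difference from D2PGCLCs was 0.97 on the log2 scale (SE 0.24, edgeR adjusted p = 0.00426), short of the 2-fold cutoff, and 1.04 (adjusted p = 0.00559) without D6PGCLC replicate 1. *Crabp1* made up 84.9% ± 1.14 of the summed CRABP RPKM in ESCs, 25.4% ± 6.48 in EpiLCs, 88.9% ± 5.53 in D2PGCLCs, with 88.1% ± 1.48 on day 4 and 84.7% ± 3.47 on day 6.

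**Figure D4:**
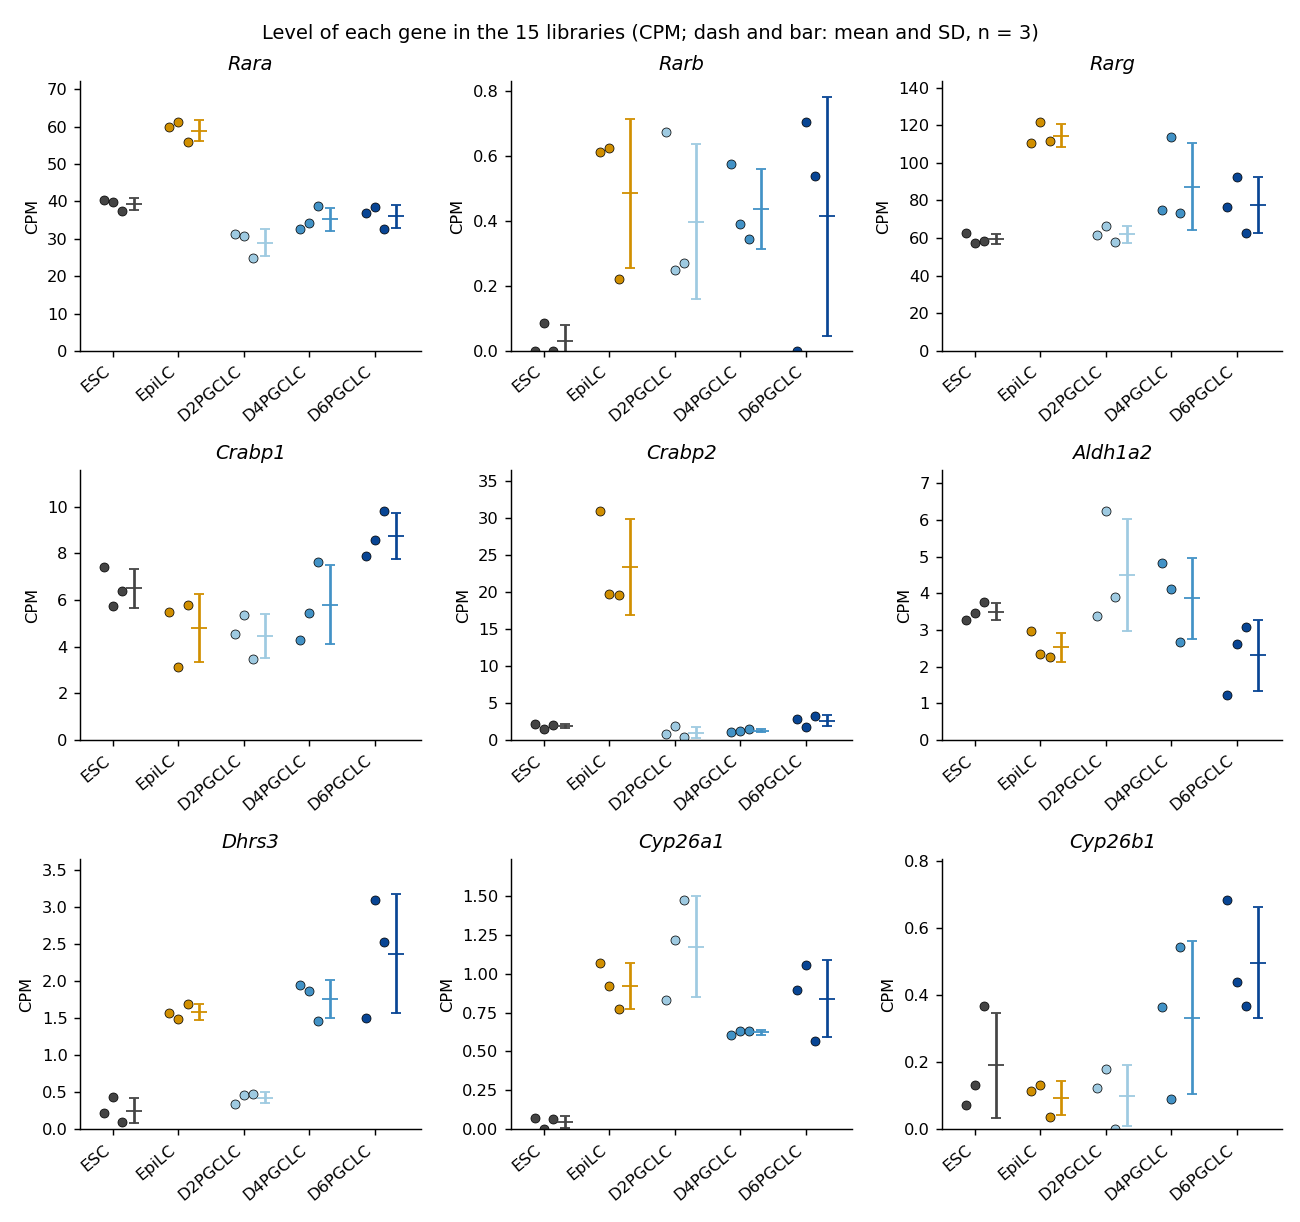
Level of each of the 9 genes in every library (CPM, linear axes from 0, scale differing between panels), with the group mean and SD beside the 3 points. *Crabp2*, *Rara* and *Rarg* peak in EpiLCs, *Dhrs3* is high in EpiLCs, D4PGCLCs and D6PGCLCs, and *Rarb* and *Cyp26a1* are at or near 0 in ESCs.

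The synthesis enzyme *Aldh1a2* (ENSMUSG00000013584, chr9:71215789-71296243, plus strand) was not called in any comparison in the fit of all 15 libraries. It was at 3.28, 3.46 and 3.75 CPM in ESCs, 2.98, 2.34 and 2.28 in EpiLCs, then 3.37, 6.24 and 3.90 in D2PGCLCs, 4.82, 4.13 and 2.66 in D4PGCLCs, with 1.23, 2.62 and 3.09 in D6PGCLCs. All D6PGCLC libraries lay below all D2PGCLC libraries, and the difference was -0.95 on the log2 scale (SE 0.31, edgeR adjusted p = 0.0225). Without D6PGCLC replicate 1, the lowest library, it was -0.65 (adjusted p = 0.0934), and without D2PGCLC replicate 2 it was -0.66 (adjusted p = 0.138). Leaving out any other single library of these groups took it past the cutoff, to between -1.05 and -1.21 (adjusted p = 0.0132 to 0.0314). From EpiLCs to D2PGCLCs *Aldh1a2* rose by 0.83 without overlap of replicates (SE 0.32, edgeR adjusted p = 0.0349), short of the 2-fold cutoff.

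*Dhrs3* (ENSMUSG00000066026, chr4:144892827-144928209, plus strand), which lowers RA output by reducing retinaldehyde and is itself induced by RA, was called more often than any other of the 9 genes. Its counts were 6, 10 and 3 in ESCs, 41, 45 and 46 in EpiLCs, then 11, 13 and 16 in D2PGCLCs, 64, 62 and 51 in D4PGCLCs, with 57, 140 and 89 in D6PGCLCs. In CPM these were means of 0.253 ± 0.171, 1.58 ± 0.104, 0.428 ± 0.0788, 1.76 ± 0.259 and 2.37 ± 0.804 (SD, n = 3) in the same order. EpiLC, D4PGCLC and D6PGCLC libraries did not overlap with those of ESCs or D2PGCLCs.

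*Dhrs3* rose by 2.68 on the log2 scale from ESCs to EpiLCs (SE 0.45, edgeR adjusted p = 6.36e-05). It then fell by 1.88 to D2PGCLCs (SE 0.41, adjusted p = 0.000837) and rose again by 2.03 to D4PGCLCs (SE 0.41, adjusted p = 0.00353). It was the only one of the 9 genes called between consecutive days of PGCLC culture. D6PGCLCs were higher than D2PGCLCs by 2.46 (SE 0.41, adjusted p = 0.000126) and higher than ESCs by 3.26 (SE 0.45, adjusted p = 5.92e-06). Without D6PGCLC replicate 1 these differences were 2.71 (adjusted p = 3.86e-05) and 3.53 (adjusted p = 1.34e-06). D6PGCLCs and D4PGCLCs differed by 0.43 (SE 0.36, adjusted p = 0.47), and by 0.68 (adjusted p = 0.248) without that library.

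*Cyp26a1* (ENSMUSG00000024987, chr19:37697798-37701536, plus strand) encodes the main inducible RA hydroxylase of the early embryo. It had 2, 0 and 2 counts in ESCs, 28, 28 and 21 in EpiLCs, then 27, 34 and 49 in D2PGCLCs, 20, 21 and 22 in D4PGCLCs, with 34, 48 and 20 in D6PGCLCs. Every library after the ESC stage lay above every ESC library. EpiLCs were at least 8.09-fold higher than ESCs (edgeR adjusted p = 2.1e-05), and D6PGCLCs at least 7.37-fold higher (adjusted p = 2.9e-05). D2PGCLCs were at least 10.3-fold higher (adjusted p = 7.77e-06) and D4PGCLCs at least 5.47-fold higher (adjusted p = 0.000129), where 24.3% and 24.8% of tested genes were called either way. Without D6PGCLC replicate 1 the fitted log2 fold change of D6PGCLCs over ESCs was 3.96 (adjusted p = 4.96e-05). All 4 bounds take 3 counts per ESC library as the floor and share the same ESC libraries. After the ESC stage group means lay between 0.623 and 1.17 CPM, and no pair of the 4 later groups differed past the threshold. The D4PGCLC libraries lay below all D2PGCLC libraries (-0.91 on the log2 scale, SE 0.45, edgeR adjusted p = 0.208) and below all EpiLC libraries (-0.56, adjusted p = 0.309).

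*Cyp26b1* (ENSMUSG00000063415, chr6:84571414-84593908, minus strand), the CYP26 enzyme that shields male germ cells from RA in the fetal testis, was close to the limit of detection. It had 2, 3 and 11 counts in ESCs, 3, 4 and 1 in EpiLCs, then 4, 5 and 0 in D2PGCLCs, 12, 3 and 19 in D4PGCLCs, with 26, 20 and 13 in D6PGCLCs. The D6PGCLC libraries lay above all EpiLC and D2PGCLC libraries in CPM and overlapped with those of ESCs and D4PGCLCs. D6PGCLCs exceeded EpiLCs by 2.34 on the log2 scale (SE 0.91, edgeR adjusted p = 0.0342), and leaving out any EpiLC library, or D6PGCLC replicate 1 or 2, took the adjusted p to between 0.0523 and 0.122. The difference from D2PGCLCs was 2.30 (SE 0.89, adjusted p = 0.0503), and 2.01 (adjusted p = 0.106) without D6PGCLC replicate 1.

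Over the whole course, D6PGCLCs versus D2PGCLCs had 2 of the 9 genes called, *Crabp2* and *Dhrs3*, both higher, with 13.6% of tested genes called either way and 10.9% higher. D6PGCLCs versus EpiLCs had *Cyp26b1* higher and *Crabp2* lower, with 27.9% of tested genes called either way and 15.9% higher. D6PGCLCs versus ESCs had *Rarb*, *Cyp26a1* and *Dhrs3* higher, with 26.2% called either way and 15.8% higher. When the 5 group means of each gene were put in order, 4 of the 36 steps between neighbouring groups were called. These were the steps from ESCs to D2PGCLCs in *Rarb*, from ESCs to D4PGCLCs in *Cyp26a1*, from D6PGCLCs to EpiLCs in *Crabp2* and from D2PGCLCs to EpiLCs in *Dhrs3*. The other 32 steps, including all of those in *Rara*, *Rarg*, *Crabp1*, *Aldh1a2* and *Cyp26b1*, did not pass the threshold. *Rara* and *Cyp26b1* were called between groups further apart in this order, EpiLCs and D2PGCLCs for *Rara* and D6PGCLCs and EpiLCs for *Cyp26b1*. The order sets the closest groups side by side, so few calls are likely for any gene. The share of such steps over all tested genes was not counted.

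Markers of other cell types moved with some of these differences. EpiLC libraries, in which *Crabp2*, *Rara* and *Rarg* peaked, also had the highest fibroblast marker sum, with 24 to 25.1 CPM over 7 genes against 7.72 to 8.41 in ESCs and 0.919 to 2.19 in the PGCLCs. *Thy1* was the largest part of this sum in both EpiLCs and ESCs, with means of 12.8 and 5.80 CPM. *Dcn*, a fibroblast matrix gene, had 134 to 180 counts in the EpiLC libraries and 0 in those of ESCs, and 1 of the 7 genes was at 0 in every EpiLC library. The methods of the study describe upkeep of mouse ESCs on feeder fibroblasts, naive ESCs in 2i plus LIF on coated wells, and EpiLCs on fibronectin. D6PGCLCs had 9.03 to 16.9 CPM over 5 endoderm markers and 11 to 16.4 CPM over 6 mesoderm markers, against 0.69 to 1.15 and 1.56 to 2.26 in D2PGCLCs. *Gata6* and *Hand1* held most of these sums, and 1 endoderm marker was at 0 in every D6PGCLC library. *T*, *Mixl1* and *Tbx6* of the mesoderm list and *Foxa2* of the endoderm list had lower means in D6PGCLCs than in D2PGCLCs, and no other marker of these lists did. ESCs had 15.6 to 18 CPM of mesoderm markers, most of it *T*, and 5.07 to 6.36 CPM of endoderm markers. D4PGCLCs, with *Dhrs3* already at 1.76 CPM, had 3.32 to 4.01 CPM of endoderm and 3.37 to 4.79 CPM of mesoderm markers. Neural markers summed to 30.8 to 48 CPM in D6PGCLCs and 80.1 to 123 CPM in the other groups. *Tubb3* held most of that sum, with a mean of 28.0 CPM in D6PGCLCs and 66.3 to 98.7 CPM in the others, while the other 4 neural markers each had a higher mean in D6PGCLCs than in D2PGCLCs. The part of such cells in the values of the 9 genes was not tested, and in bulk RNA fewer cells of a type cannot be told apart from less RNA per cell.

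The RXR partners and retinoid carriers, 9 of 10 genes tested, changed most at the same steps. In EpiLCs versus ESCs 5 were called higher and 1 lower, with a median log2 fold change of 2.28, where 14.4% of all tested genes were called higher and 11.9% lower. *Rxrg*, an RXR gene, had 0 counts in all ESC libraries and 93, 80 and 103 in EpiLCs, at least 29.2-fold higher (edgeR adjusted p = 2.55e-06), and fell by 4.36 on the log2 scale to D2PGCLCs (SE 0.70, adjusted p = 5.69e-05). *Stra6*, the retinol uptake receptor, rose by 2.87 (SE 0.64, adjusted p = 0.000956), *Rbp7* by 2.46 (SE 0.80, adjusted p = 0.0148) and *Fabp5*, an alternative RA carrier, by 2.34 (SE 0.22, adjusted p = 6.06e-08). From EpiLCs to D2PGCLCs 1 was called higher and 3 lower, where 25.4% of all tested genes were called either way and 14.4% lower. *Lrat*, which stores retinol as esters, rose by 3.88 (SE 0.47, edgeR adjusted p = 1.37e-06), while *Rbp7* was at least 18.7-fold lower (adjusted p = 0.000462) and *Stra6* fell by 2.60 (SE 0.62, adjusted p = 0.0016).

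*Rxrb* made up the largest share of the RXR sum in every group, from 73.3% ± 0.403 (SD, n = 3) in ESCs to 88.5% ± 0.839 in D2PGCLCs. *Rxrg* made up 9.83% ± 1.42 in EpiLCs and at most 0.618% in any other library. Among the PGCLCs, none of these 9 partners and carriers was called between days 2 and 4 by edgeR, where 5 had an unadjusted p under 0.05 and DESeq2 called 1. *Rbp4*, the serum carrier of retinol, was the 1 gene called between days 4 and 6, higher by 1.16 (SE 0.34, edgeR adjusted p = 0.0288) and by 1.19 (adjusted p = 0.047) without D6PGCLC replicate 1. Between days 2 and 6, *Rbp4* and *Stra6* were each higher by 1.97, *Stra6* with overlapping replicates, and *Rxrg* was at least 2.03-fold lower. Without D6PGCLC replicate 1 *Rbp4* and *Stra6* were higher by 2.00 and 2.32 and stayed called, and the call on *Rxrg* was lost (edgeR adjusted p = 0.0869).

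Of 14 other retinoid enzymes, 10 were tested and few were called. In EpiLCs versus ESCs *Adh7* was at least 6.34-fold higher and *Aldh1a3*, another RA-synthesising enzyme, at least 8.14-fold lower (edgeR adjusted p = 0.00109 and 8.21e-05). From EpiLCs to D2PGCLCs *Rdh11*, a retinal reductase, fell by 1.60 (SE 0.11, edgeR adjusted p = 4.84e-10) and *Aldh1a3* was at least 1.46-fold higher (adjusted p = 0.0309). Between days 2 and 6 *Adh1* was called, higher by 1.25 (SE 0.45, edgeR adjusted p = 0.0356) and by 1.44 (adjusted p = 0.0218) without D6PGCLC replicate 1. None of the 10 was called by edgeR or DESeq2 between days 2 and 4 or between days 4 and 6, with 0 and 2 genes at an unadjusted p under 0.05. D6PGCLCs had 2 genes higher and 2 lower than EpiLCs, and 0 higher and 2 lower than ESCs, the last being 1 without D6PGCLC replicate 1. In these comparisons 27.9% and 26.2% of all tested genes were called either way.

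The 7 receptor cofactors, among them *Ncor1*, *Ncoa1* and *Ep300*, were all tested, and none was called in any of the 7 comparisons by edgeR or DESeq2. Their log2 fold changes lay between -0.77 and 0.92, so all stayed short of the 2-fold cutoff. At an adjusted p under 0.05 alone, edgeR passed 6 of the 7 in D2PGCLCs versus EpiLCs and in D6PGCLCs versus ESCs, 5 in D6PGCLCs versus EpiLCs, 2 in EpiLCs versus ESCs, 1 in D6PGCLCs versus D2PGCLCs, and 0 between consecutive days. In each comparison 2 to 6 of them had an unadjusted p under 0.05. Of all tested genes, edgeR called 2.94% to 27.9% either way in these comparisons. Their share at a p cutoff alone was not counted.

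A list of germ cell genes linked with RA was drawn up, and whether each of them responds to RA was not tested here. Of 10 such genes, 2 were called higher from D2PGCLCs to D4PGCLCs and 3 from D4PGCLCs to D6PGCLCs, with 0 lower in either. At these steps 2.56% and 2.29% of all tested genes were called higher. *Stra8* had 41, 23 and 30 counts in ESCs, 172, 164 and 189 in EpiLCs, then 183, 333 and 411 in D2PGCLCs, 810, 811 and 1191 in D4PGCLCs, with 5804, 5899 and 6847 in D6PGCLCs. All D6PGCLC libraries lay above all D4PGCLC libraries, and the rise was 2.52 on the log2 scale (SE 0.22, edgeR adjusted p = 1.68e-06). At the same step *Dazl*, an RNA-binding protein of germ cells, rose by 1.20 (SE 0.17, adjusted p = 0.000169) and *Sycp3*, of the synaptonemal complex, by 1.14 (SE 0.20, adjusted p = 0.00101). These 3 changes were 2.55, 1.15 and 1.26 without D6PGCLC replicate 1, all still called. Over the same step *Crabp2* differed by 1.05 and *Crabp1* by 0.59 on the log2 scale, both without overlap of replicates but with edgeR adjusted p of 0.0596 and 0.114, and DESeq2 called *Crabp2* (1.07, adjusted p = 0.0159). *Rara*, *Rarb* and *Rarg* differed by 0.03, -0.07 and -0.18, *Aldh1a2* by -0.74, *Cyp26a1* and *Dhrs3* by 0.43 each and *Cyp26b1* by 0.57, with edgeR adjusted p from 0.131 to 0.971. Between D2PGCLCs and D6PGCLCs 6 of the 10 germ cell genes were called higher and 0 lower, with 10.9% of tested genes higher, and 5 were called without D6PGCLC replicate 1. In EpiLCs versus ESCs 5 were called higher and 1 lower, where 14.4% of all tested genes were called higher and 11.9% lower. In D2PGCLCs versus EpiLCs 3 were called higher and 1 lower, where 25.4% were called either way and 14.4% lower.

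**Figure D5:**
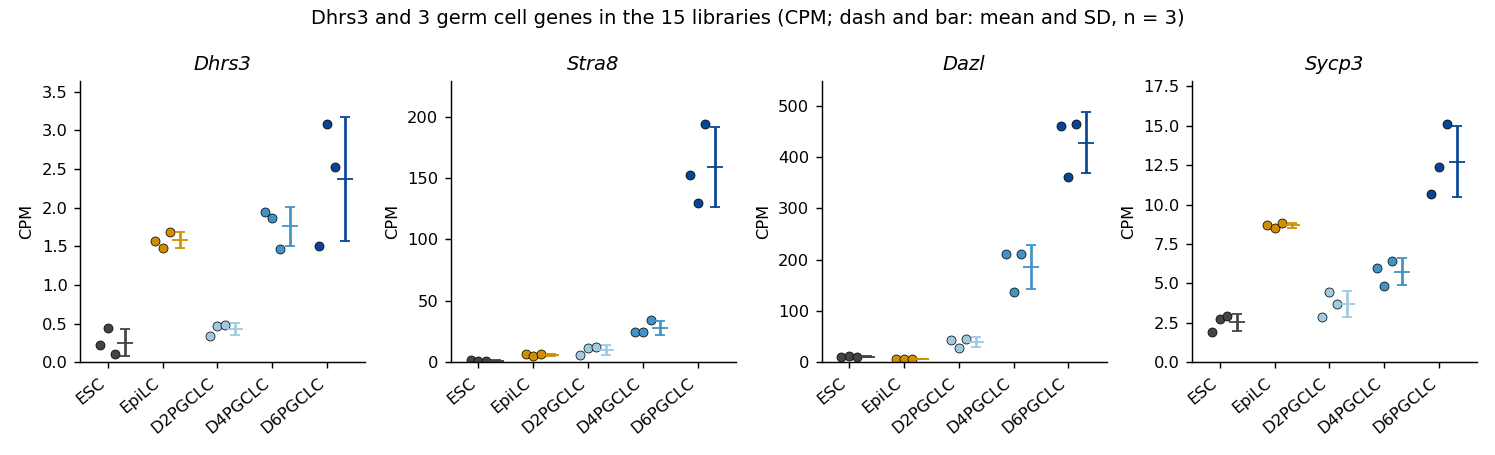
Levels of *Dhrs3*, *Stra8*, *Dazl* and *Sycp3* in every library (CPM, linear axes from 0, scale differing between panels), with the group mean and SD beside the 3 points. *Dhrs3* rises between D2PGCLCs and D4PGCLCs and has overlapping libraries on days 4 and 6, while the D6PGCLC libraries of the 3 germ cell genes lie above all D4PGCLC libraries.

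Of 16 genes known to respond to RA in somatic tissues, 14 were tested. In EpiLCs versus ESCs 2 were called higher and 10 lower, with a median log2 fold change of -1.83 and 11.9% of tested genes lower, while *Rarb*, *Cyp26a1* and *Dhrs3* were higher. *Cdx1*, a caudal homeobox gene, fell by 5.66 (SE 0.39, edgeR adjusted p = 7.06e-10) and *Nr2f1* was at least 22-fold lower (adjusted p = 5.56e-06). From D2PGCLCs to D4PGCLCs and from D4PGCLCs to D6PGCLCs 3 were called higher and 0 lower at each step. At these steps 2.56% and 2.29% of tested genes were called higher. Leaving out a replicate gave 1 to 3 called genes at the first of these steps and 2 to 3 at the second. Between D2PGCLCs and D6PGCLCs 5 were called higher and 0 lower, or 4 without D6PGCLC replicate 1, where 10.9% of tested genes were called higher. Among them *Zfp703* rose by 3.32 (SE 0.57, edgeR adjusted p = 0.000179) and *Cdx1* by 2.55 (SE 0.37, adjusted p = 3.07e-05), and *Nr2f1* was at least 6.36-fold higher (adjusted p = 0.000342). These 3 genes stayed called without D6PGCLC replicate 1, with edgeR adjusted p of 0.000806, 0.000114 and 0.0011. D6PGCLCs had 10 of the 14 higher and 3 lower than EpiLCs, but 4 higher and 5 lower than ESCs, with a median log2 fold change of -0.16 (15.9% and 15.8% of tested genes were higher in the respective comparisons).

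For the 6 genes called at least once, the genes with the most similar profile were sought by Pearson r of log2(CPM + 1) over the 15 libraries, among genes with a mean of at least 5 CPM in a group. *Crabp2* was most like *Stk26*, *Pak3* and *Wnt8a* (r = 0.978, 0.976 and 0.976), all highest in EpiLCs. *Dhrs3* was most like *Kcnn2*, *Rnf144a* and *Taf9b* (r = 0.963, 0.94 and 0.932), and *Rara* most like *Sox3*, *Adgrl1* and *Doc2a* (r = 0.959, 0.955 and 0.948). *Cyp26a1* was most like *Cct7*, *Usp25* and *H19* (r = 0.939, 0.935 and 0.928), of which *H19* rose from 0.121 CPM in ESCs to 119 in EpiLCs. The closest genes to *Cyp26b1* (r = 0.828 to 0.855) and *Rarb* (r = 0.78 to 0.806) were less alike. *4933439C10Rik*, *9330182L06Rik* and *Purg* came closest to *Cyp26b1*, and *Shc2*, *Sclt1* and *Rp2* to *Rarb*. The 3 libraries of a group share their culture condition, and these values are a description with no test.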

How the data were processed

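The authors prepared directional RNA-seq libraries, mapped the reads on mm10 and deposited raw, unnormalized counts for each Ensembl gene. The submitters' processing notes name FastQC, Trim Galore and STAR. Versions, the counting tool, its strand setting and its handling of reads that match several genes, which bears on the RAR and CRABP paralogs, are not given in the sources used here. Symbols, coordinates and merged exon lengths came from GENCODE M21 and promoters from RefSeq (GRCm38.p6). Replicates are separate samples by label. Nothing states that they came from separate cultures, so p-values measure the spread between these samples, which may be technical. No pair of replicates agreed within sampling noise, with a chi-square per gene of 8.82 to 44.6.

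The 15 libraries were modelled together by group in edgeR 4.0.16 (R 4.3.3) with TMM scaling, filterByExpr (minimum 10) and the quasi-likelihood test, and p-values were adjusted by Benjamini-Hochberg across 18090 genes. SE is the absolute log2 fold change divided by the square root of F. CPM used TMM library sizes. Where no library of a group exceeded 3 counts, the fold is a lower bound computed at 3 counts per library, which covers counting error only. Alternatives were DESeq2 1.42.0, DESeq2 size factors, no filter, no fold cutoff, fits of 2 groups, a replicate block and leaving out each replicate. Both tools were tested on simulated data first.

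The 9 genes and the lists were chosen with earlier results of these data known. All 9 genes are named. From other lists at most 4 called genes per comparison are named, those with the largest absolute log2 fold change, and for likeness the 3 genes with the highest r. Some genes of these lists are not reported here by name.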

Additional observations from a re-analysis of the deposited data

How the results depend on the processing

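The number of the 9 genes called was within 1.5 times the reported number for EpiLCs versus ESCs and D6PGCLCs versus ESCs under every alternative run. With no fold-change cutoff the number rose to 5 for D2PGCLCs versus EpiLCs, 2 for D4PGCLCs versus D2PGCLCs, 5 for D6PGCLCs versus D2PGCLCs and 5 for D6PGCLCs versus EpiLCs. For D6PGCLCs versus D4PGCLCs, *Crabp2* was called with DESeq2 (1 gene) and with no filter on low counts (1 gene), and leaving out a replicate gave 0 to 1. For D6PGCLCs versus D2PGCLCs, a fit of only these groups called 1 gene. Leaving out a replicate gave 1 to 2 genes for D6PGCLCs versus EpiLCs. The cause was not tested.

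Libraries with the same replicate number in the labels had a mean correlation of deviations of 0.07 over 30 pairs (-0.184 to 0.358, 8 of them above 0.1). Those with different numbers had -0.035 over 60 pairs (-0.401 to 0.259, 4 of them above 0.1). Deviations were taken from the mean of each group, which ties these means to each other. The values therefore do not settle whether the numbers pair the samples. With the replicate block the number called was the reported one in all 7 comparisons: 4, 3, 1, 0, 2, 2 and 3.

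Of the single-gene log2 fold changes, 688 kept direction and side of the threshold, 24 passed it, 13 no longer did and 26 changed sign; none of the last was called. *Cyp26b1* in D2PGCLCs versus EpiLCs went to 0.00 with DESeq2 size factors. Leaving out a replicate changed sign within these log2 ranges: *Cyp26b1* -0.60 to 0.64 and *Crabp1* -0.33 to 0.07 (D2PGCLCs versus EpiLCs); *Rarb* -0.12 to 0.74, *Crabp2* -0.03 to 1.09 and *Aldh1a2* -0.40 to 0.09 (D4PGCLCs versus D2PGCLCs); *Rara* -0.03 to 0.10, *Rarb* -0.71 to 0.51 and *Rarg* -0.33 to 0.06 (D6PGCLCs versus D4PGCLCs); *Rarb* -0.58 to 0.67 (D6PGCLCs versus D2PGCLCs); *Rarb* -0.86 to 0.36, *Cyp26a1* -0.33 to 0.09 and *Aldh1a2* -0.37 to 0.18 (D6PGCLCs versus EpiLCs). With log2(CPM + 4), 1 of the 3 genes most like *Rara* stayed among its top 3. *Stk26*, the gene most like *Crabp2*, moved to rank 29, and *Purg* moved to rank 4 for *Cyp26b1*. Depth limits *Rarb*, *Cyp26a1* and *Cyp26b1*, which had at most 49 counts in a library. For 11 differences of genes from the other lists, the values without D6PGCLC replicate 1 were chosen after seeing the data.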
